A study of Mus musculus with 20 samples.

Results

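The genes described here encode the proteins of the mitochondrial ribosome. They were taken by symbol, as every gene with a probe whose single symbol in the array annotation is Mrpl or Mrps followed by a number. The rule found 73 genes with 76 probes, among 15252 genes and 18790 probes with a single symbol, and used no measured value. Of the 73 genes, 45 carry a large-subunit symbol (Mrpl) and 28 a small-subunit symbol (Mrps). They are spread over 17 chromosomes.

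Mitochondria keep their own ribosome, which translates the few messages of mitochondrial DNA, all of which encode subunits of the respiratory chain and the ATP synthase. The ribosomal RNAs come from mitochondrial DNA, whereas the ribosomal proteins come from nuclear genes and are imported. Many of these proteins descend from bacterial ribosomal proteins, and the rest are found in mitochondria only. PPARα, the receptor encoded by Ppara, drives fatty acid oxidation in liver mitochondria, and its known targets are mostly enzymes of lipid metabolism.

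Livers were from 20 mice in 5 groups of 4. The vehicle group received Ringer's solution, and each other group received 40 µg of siRNA in the same solution (PPARa siRNA, PPARa-M siRNA, or the control siRNAs GL3 and SEAP-M), by hydrodynamic injection into the tail vein, a fast injection of a large volume that carries nucleic acid into hepatocytes. The PPARa and PPARa-M siRNAs target separate stretches of the Ppara mRNA, and the control siRNAs target reporter genes (GL3 and secreted alkaline phosphatase). Livers were taken at 48 h. RNA of each mouse was hybridized on a 2-colour oligonucleotide array against a pool from 4 vehicle-treated mice, so that every value is a log2 ratio of a mouse to that pool, and a value of 0 means a level equal to the pool. Mice of all groups, vehicle included, had undergone the injection, and no uninjected liver was analysed here. Strain, sex and age are not given in the sources used here, and neither is the meaning of the suffix M. The dyes and titles do not settle which channel is the numerator. The direction mouse over pool is the likely one, because the titles name the pool first and because Ppara was then lower in mice given Ppara siRNAs. Whole liver was sampled, and fewer cells of a type cannot be told apart from less RNA per cell.

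Ppara was lower with PPARa-M siRNA than with its control siRNA. That direction was among the reasons for reading the values as mouse over pool, so its sign is no independent result. It stood at -0.59, -1.05, -0.59 and -0.62 in the mice given PPARa-M siRNA, and at 0.80, -0.16, 0.12 and -0.07 in those given SEAP-M control siRNA. The difference was -0.89 (SE 0.17, n = 4 against 4, limma, adjusted p = 0.0104). With PPARa siRNA the values were 0.09, -0.42, -0.29 and -0.35, against 0.04, 0.20, 0.00 and 0.15 with GL3 control siRNA, and the difference of -0.34 (SE 0.17) did not pass (limma, adjusted p = 1.00). The effects of the siRNAs on Ppara, each relative to its own control, differed by -0.55 (SE 0.24, adjusted p = 0.351), and PPARa-M and PPARa mice by -0.47 (SE 0.17, adjusted p = 0.0903), neither of which passed. The spread of the arrays also differed between groups. The interquartile range over all genes was 0.24 to 0.40 in the PPARa-M mice, with the widest array that of mouse B, and 0.14 to 0.28 in the other 16 mice. When every array was scaled to the same interquartile range, the Ppara difference for PPARa-M siRNA was -0.58 with an adjusted p of 0.114.

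The promoters of 65 of the 73 genes are in the reference table of RefSeq (build GRCm38.p6, from 250 bases before to 50 after the start of transcription), and 8 genes are only named (Mrpl4, Mrpl13, Mrpl15, Mrpl19, Mrpl38, Mrpl54, Mrps28 and Mrps34). Promoters are shown because the genes moved together from mouse to mouse, as described further on. Letters of 6 motifs were searched on both strands, and capitals mark a match. The core bound by ETS factors such as GABPA (CCGGAAG) was in 24 of the 65 promoters (36.9%) and in 11.9% of the 17491 promoters of protein-coding genes. The NRF1 motif (GCGCA and GCGC with any base between) was in 12 of 65 (18.5%, against 6.6%), and the YY1 motif (AAGATGGCG) in 7 of 65 (10.8%, against 1.94%). The GC box of SP factors (GGGGCGGGG) was in 12 of 65 (18.5%, against 15.5%). The direct repeat bound by PPARα with its partner RXR (AGGTCA repeated after any 1 base) was in 0 of 65 and in 9 of all 17491, and the letters TCAAGGTCA of estrogen-related receptors were in 0 of 65 and in 0.332% of all. Matches of different motifs overlapped in 0 of the 65 promoters. A match describes the letters only, and binding was not measured.

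Each stretch runs 5′ to 3′ on the strand of the gene. The large-subunit gene Mrpl34, the member with the largest increase, lies at chr8:71464926-71465753, and its ETS match stands 37 bases before the start. For the small-subunit gene Mrps5, the member with the only decrease that passed against the paired control, no searched motif was in the stretch shown. Its searched promoter does hold a GC box, outside that stretch. For Mrpl9, the member most closely tied to the Ppara level, 30 bases around the NRF1 match are shown. Mrps12, whose product lies at the decoding center, shares its promoter head to head with Sars2, the mitochondrial seryl-tRNA synthetase, and holds an ETS match just after its start. Mrpl46 and Mrps11, a large- and a small-subunit gene, start 42 bases apart on opposite strands, and the stretch shown reaches 30 bases into both.
Mrpl34 (chr8:71464776-71464955, + strand): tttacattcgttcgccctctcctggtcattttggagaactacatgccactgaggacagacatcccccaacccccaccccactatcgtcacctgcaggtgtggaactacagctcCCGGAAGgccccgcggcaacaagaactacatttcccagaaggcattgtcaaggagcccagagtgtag
Mrps5 (chr2:127587276-127587455, + strand): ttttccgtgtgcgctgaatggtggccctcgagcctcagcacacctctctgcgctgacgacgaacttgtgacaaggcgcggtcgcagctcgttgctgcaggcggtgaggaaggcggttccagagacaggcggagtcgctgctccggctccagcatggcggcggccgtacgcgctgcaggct
Mrpl9 (chr3:94443298-94443327, + strand): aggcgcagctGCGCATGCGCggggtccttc
Mrps12 (chr7:28741792-28741968, - strand): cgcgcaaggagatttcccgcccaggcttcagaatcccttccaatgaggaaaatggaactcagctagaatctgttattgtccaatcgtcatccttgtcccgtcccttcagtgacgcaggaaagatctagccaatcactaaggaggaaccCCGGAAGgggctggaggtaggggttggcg
Mrpl46 (chr7:78783060-78783161, - strand): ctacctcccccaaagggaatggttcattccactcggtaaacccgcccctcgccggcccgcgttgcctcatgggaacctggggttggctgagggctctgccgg

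The mitochondrial ribosomal protein mRNAs changed little in level across the 20 livers. The 1460 values of the 73 genes ran from -0.74 (Mrpl41, PPARa siRNA B) to 0.67, and 99.3% lay within 0.5 of the pool. For 63 genes all 20 values did so. Within a mouse, the interquartile range was 0.07 to 0.43 over the members and 0.14 to 0.40 over all genes. The shares within 0.5 were not taken over all genes, so they do not set the members apart. In the vehicle group the SD over the 4 mice had a median of 0.092 for these genes and of 0.121 for all genes. It was smallest for Mrps9 (0.026), a protein of the small-subunit head, and largest for Mrpl57 (0.23), a protein of the large subunit found in mitochondria only. No value of these genes stood at the limit of the deposited log10 ratios, 2 or -2, whereas 40 values of other probes did.

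With PPARa-M siRNA, 2 members passed against SEAP-M control siRNA at an adjusted p under 0.05 (limma over all genes, all 20 arrays). Mrpl34 was higher and Mrps5 was lower. In the same comparison 2.54% of all 15252 genes passed (1.04% higher and 1.51% lower), so that 2 of 73 (2.74%) is close to the background. The p-values rest on the spread between mice of a group, and 4 mice a group limit the precision of every difference. The median difference over the 73 members was -0.02 (quartiles -0.14 and 0.08), beside -0.01 for all genes, and 30 of 73 were positive.

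Mrpl34 encodes a short protein of bacterial descent in the large subunit. Its values were 0.31, 0.51, 0.48 and 0.46 with PPARa-M siRNA, and 0.01, -0.08, 0.06 and 0.20 with SEAP-M control siRNA. All 4 PPARa-M mice were above the other 16, a split that was not counted over all genes. The highest of the 16, a mouse given PPARa siRNA, stood at 0.25. The difference from SEAP-M was 0.39 (SE 0.10, 1.31-fold, limma, adjusted p = 0.0417). Against vehicle, with values of 0.23, 0.06, -0.09 and -0.21, it was 0.44 (SE 0.10, adjusted p = 0.0149), and against PPARa siRNA it was 0.41 (SE 0.10, adjusted p = 0.0138). Mrpl34 was also the only member that passed the F test over the 5 groups (limma, adjusted p = 0.0259), which 5.76% of all genes passed. With every array scaled to the same interquartile range, 0 members passed it.

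Mrps5 encodes a protein near the mRNA entry of the small subunit, at chr2:127587426-127603986. It stood at -0.04, -0.09, -0.24 and -0.22 with PPARa-M siRNA and at 0.27, 0.12, 0.09 and 0.05 with SEAP-M control siRNA. These groups did not overlap, but the vehicle mice (-0.06, -0.02, -0.04 and 0.13) overlapped with both. The difference from SEAP-M was -0.28 (SE 0.07, 0.824-fold, adjusted p = 0.0411 by limma), and it combined PPARa-M values below the pool with SEAP-M values above it.

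Several members came near the threshold. Mrpl28, of bacterial descent in the large subunit, was at -0.12, -0.22, -0.58 and -0.41 with PPARa-M siRNA and between -0.04 and 0.13 with SEAP-M control siRNA (difference -0.38, SE 0.10, limma, adjusted p = 0.0577). Its level was below the pool in all 4 GL3 mice as well (-0.18, -0.32, -0.26 and -0.04). Mrpl9, a large-subunit protein of bacterial descent, had the most negative difference of all members, -0.46 (SE 0.14, adjusted p = 0.0738). In all, 10 members had every PPARa-M value below every SEAP-M value, namely Mrpl9, Mrpl28, Mrpl38, Mrpl45, Mrps2, Mrps5, Mrps9, Mrps10, Mrps24 and Mrps27. That is 13.7% of the members, beside 6.36% of all genes. In the other direction Mrpl34 was the only member without overlap (1.37%, beside 3.72% of all genes). At an unadjusted p under 0.05, 13 members were lower (11.1% of all genes were) and 2 were higher (7.68% of all genes).

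**Figure D1:**
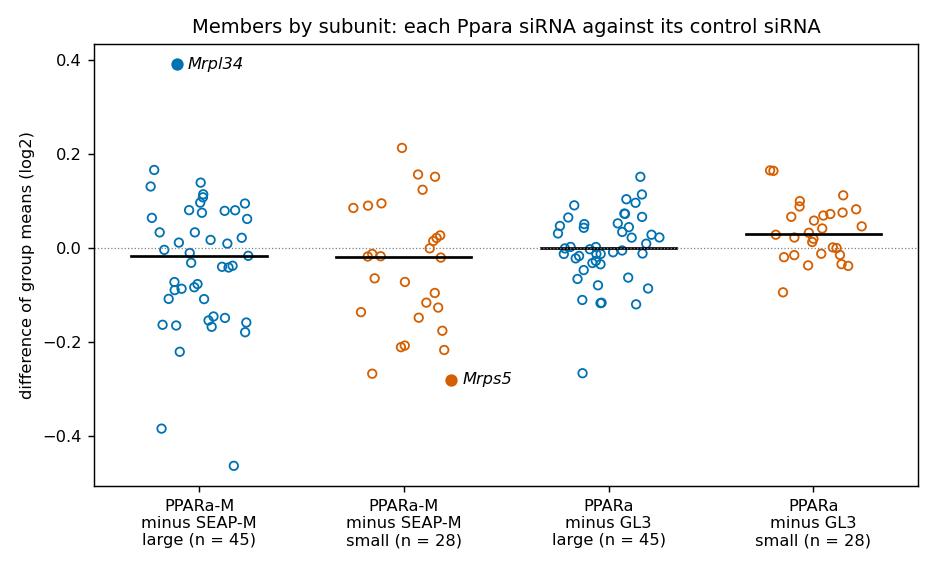
Difference of group means (log2) for each of the 73 members, 45 large and 28 small, for each Ppara siRNA against its control siRNA (PPARa-M against SEAP-M, PPARa against GL3). Filled points passed at an adjusted p under 0.05 (Mrpl34 and Mrps5), open points did not, and black lines are medians, which lie between -0.02 and 0.03.

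Both calls depended on the scale of the arrays and on single mice. With every array scaled to the same interquartile range, Mrpl34 differed from SEAP-M by 0.25 and Mrps5 by -0.22 (limma, adjusted p = 0.342 and 0.175), and 0 members passed. Leaving out 1 mouse at a time left between 0 and 3 members past the threshold, with 0 in the 7 fits without PPARa-M mouse C or D, SEAP-M mouse A, B or C, or GL3 mouse C or D. The larger spread of the PPARa-M arrays moved with these differences, and its part in them was not tested.

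PPARa-M siRNA was also compared with vehicle. Again 2 members passed, where 7.28% of all genes did (3.36% higher and 3.91% lower). Besides Mrpl34, this was Mrpl13 (chr15:55534095-55557312), which encodes a large-subunit protein of bacterial descent. Mrpl13 stood at -0.17, -0.24, -0.43 and -0.32 with PPARa-M siRNA and at 0.13, -0.03, 0.01 and -0.03 with vehicle, without overlap. The difference was -0.31 (SE 0.08, limma, adjusted p = 0.0297). With SEAP-M control siRNA Mrpl13 stood at -0.24, -0.15, 0.10 and 0.03, which overlapped with the PPARa-M mice. Mrps10, a small-subunit protein of bacterial descent, lay within a narrow range in the PPARa-M mice, from -0.24 to -0.19, and differed from vehicle by -0.24 (SE 0.08, adjusted p = 0.0657). Without overlap, 8 members were below vehicle (11.0%, beside 7.73% of all genes) and 1 was above (1.37%, beside 5.48%). At an unadjusted p under 0.05, 11 were lower (12.8% of all genes) and 2 higher (10.5%). Without vehicle mouse D, 0 members passed, and Mrpl34 had an adjusted p of 0.0693. Of the 20 fits that left out 1 mouse, the call of Mrpl34 was lost in 1. That of Mrpl13 was lost in 5 (limma, adjusted p up to 0.0867). With arrays scaled to the same range, 0 passed (Mrpl34 0.29, adjusted p = 0.200, and Mrpl13 -0.22, adjusted p = 0.216).

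**Figure D2:**
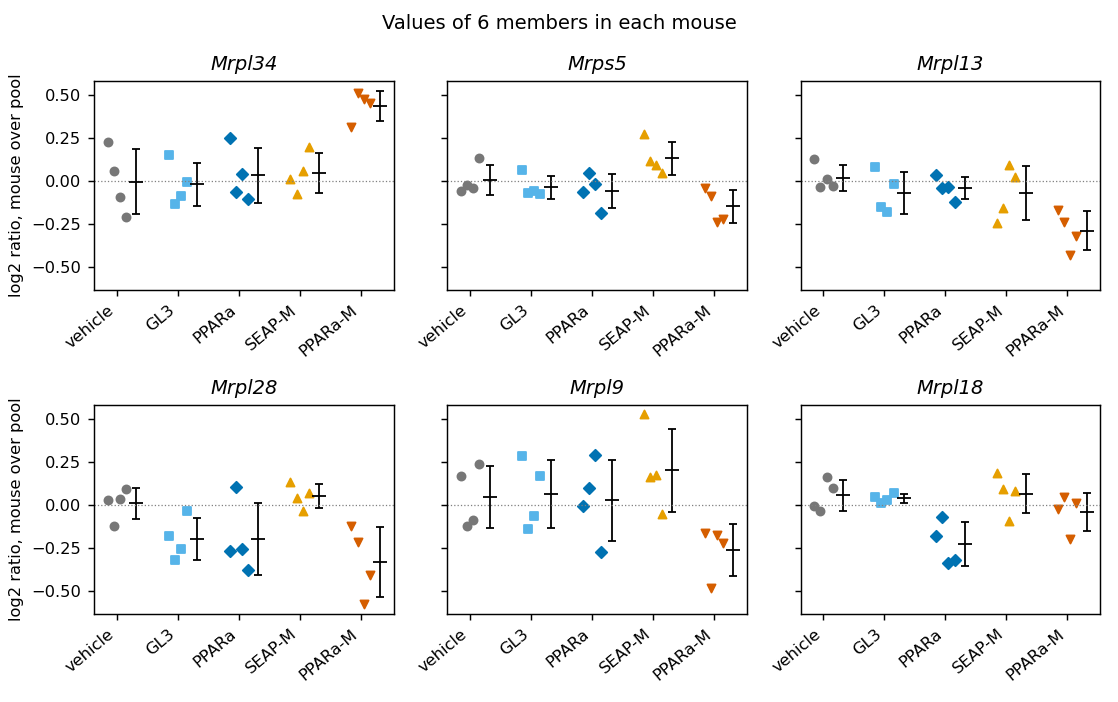
Log2 ratio of mouse to pool for 6 members in each of the 20 mice, by group, with the group mean and SD in black (n = 4). Mrpl34 lies at 0.31 to 0.51 in the PPARa-M mice and at or below 0.25 in all others, and Mrpl18 is lowest in the PPARa siRNA mice.

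PPARa siRNA gave no call among the members. Against GL3 control siRNA, 0 of 73 passed, where 0.0525% of all genes did, and at an unadjusted p under 0.05, 1 member was higher and 1 lower (2.09% and 2.86% of all genes). The member with the smallest p was Mrpl18, whose product sits at the central protuberance of the large subunit. Its values were -0.18, -0.07, -0.34 and -0.32 with PPARa siRNA and 0.04, 0.01, 0.03 and 0.07 with GL3 control siRNA. The groups did not overlap, and the difference was -0.27 (SE 0.08, limma, adjusted p = 0.565). No other member lay below GL3 without overlap (1 of 73, beside 1.99% of all genes), and Mrps34 and Mrps18b lay above it (2 of 73, beside 2.07%). Mrps34, a small-subunit protein found in mitochondria only, was at 0.17, 0.12, 0.19 and 0.24 with PPARa siRNA and between -0.11 and 0.11 with GL3 (difference 0.17, SE 0.07, adjusted p = 0.962). For Mrps18b (0.16, SE 0.09) and Mrpl35 (-0.12, SE 0.07) the adjusted p was 1.00. Against vehicle 0 of 73 passed as well (0.0787% of all genes), and the smallest adjusted p was again that of Mrpl18 (-0.28, SE 0.08, adjusted p = 0.385).

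When the mice of both Ppara siRNAs were compared with those of both control siRNAs, 0 members passed (0.216% of all genes). The members with the smallest p were Mrpl18 (-0.19, SE 0.05, limma, adjusted p = 0.164), Mrpl34 (0.22, SE 0.07, adjusted p = 0.215), Mrps34 (0.16, SE 0.05, adjusted p = 0.219) and Mrps5 (-0.15, SE 0.05, adjusted p = 0.246). At an unadjusted p under 0.05, 2 were higher and 5 lower, against 4.5% and 6.85% of all genes. The effects of the 2 Ppara siRNAs, each relative to its own control, differed for 0 members (0.879% of all genes). The smallest adjusted p in that test of the difference was 0.214, for Mrpl40 (-0.24, SE 0.08), a large-subunit protein found in mitochondria only. At an unadjusted p under 0.05, 13 members had the lower effect with PPARa-M (17.8%, beside 6.89% of all genes) and 1 the higher (5.68% of all genes).

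Compared directly, PPARa-M and PPARa siRNA differed for 2 members, where 9.02% of all genes passed (4.79% higher and 4.23% lower). These were Mrpl34, given above, and Mrps27, a small-subunit protein that binds RNA. Mrps27 stood at -0.33, -0.11, -0.19 and -0.21 with PPARa-M siRNA and at 0.07, -0.09, 0.10 and -0.05 with PPARa siRNA (difference -0.22, SE 0.07, limma, adjusted p = 0.0464). Leaving out 1 mouse at a time left only 1 member past the threshold in 15 of 20 fits. With arrays scaled to the same range, 0 passed. The control siRNAs had no call against each other (0 of 73, 0% of all genes). Against vehicle 0 members passed with SEAP-M (0.00656% of all genes) and 0 with GL3 (0.0131%), and 0 members had an unadjusted p under 0.05 in either, beside 3.17% higher and 2.68% lower of all genes for SEAP-M and 1.19% and 1.59% for GL3. Between the controls, 6 members were higher and 4 lower with SEAP-M at an unadjusted p under 0.05 (5.36% and 5.74% of all genes).

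Large and small subunit followed the same course from mouse to mouse. The mean of the 45 large-subunit genes ran from -0.09 to 0.10 over the 20 mice and that of the 28 small-subunit genes from -0.09 to 0.12. Over the mice they correlated with Pearson r = 0.956 and Spearman rho = 0.955, and with r = 0.980 after the group means were removed. Without the 2 mice farthest from the median large-subunit mean r was 0.946, and under the other scalings of the arrays it was 0.944 to 0.952. Both means come from the same arrays, so that these values are a description.

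The mean over all members was highest in GL3 mouse A (0.11), vehicle mouse A (0.08) and PPARa-M mouse B (0.08). It was lowest in PPARa-M mouse C (-0.09), PPARa mouse D (-0.08), and in PPARa-M mouse D and GL3 mouse B (each -0.08). High and low mice thus occurred within the same group, and every group but SEAP-M, whose means ran from -0.02 to 0.04, spanned 0.14 to 0.19. Between 15 and 62 of the 73 members were above the pool in a mouse. The group means of the 73 genes were 0.00 (SD 0.06) with vehicle, -0.02 (SD 0.08) with PPARa-M, 0.02 (SD 0.03) with SEAP-M, 0.01 (SD 0.06) with PPARa and -0.01 (SD 0.08) with GL3, all of n = 4. The lowest and the highest of these means, those of PPARa-M and SEAP-M, differed by less than the SD over the PPARa-M mice and by more than the SD over the SEAP-M mice.

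**Figure D3:**
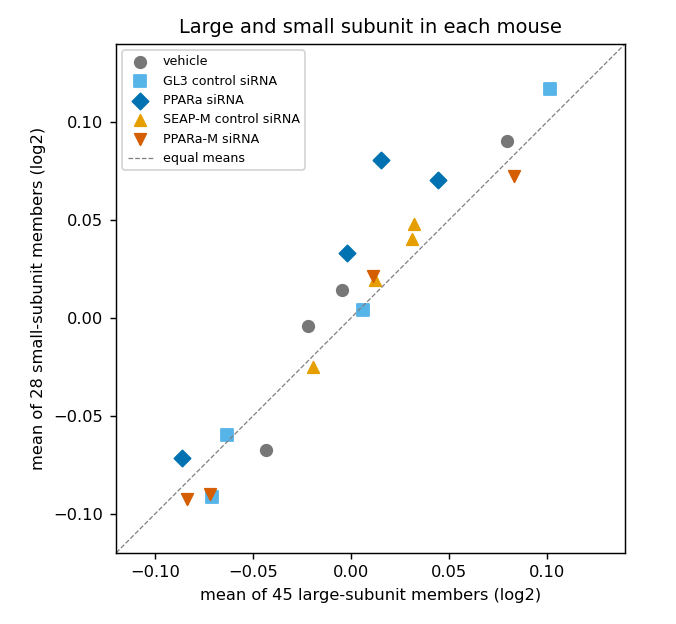
Mean log2 ratio of the 28 small-subunit genes against that of the 45 large-subunit genes, one point for each of the 20 mice, marked by group. Points lie along the dashed line of equal means from about -0.09 to 0.12 (r = 0.956), and each group except SEAP-M is spread along it.

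The difference between the subunit means was small in every mouse, from -0.07 to 0.02. It was -0.01 (SD 0.02) with vehicle, 0.01 (SD 0.01) with PPARa-M, -0.01 (SD 0.01) with SEAP-M, 0.00 (SD 0.01) with GL3 and -0.04 (SD 0.02) with PPARa siRNA. All 4 PPARa mice were negative (-0.03, -0.04, -0.07 and -0.02), while the other groups held values of either sign. Relative to the control siRNA, large minus small differed by -0.04 for PPARa and by 0.01 for PPARa-M. By median, the members' difference between PPARa and GL3 was 0.00 for the large and 0.03 for the small subunit, with 22 of 45 and 20 of 28 positive, beside a median of 0.01 for all genes. The symbols do not always give the subunit. The products of Mrps18a and Mrps30 sit in the large subunit, and Mrps36 is now known as a part of the 2-oxoglutarate dehydrogenase complex. With the first 2 moved to the large subunit and the third left out, the value for PPARa against GL3 was again -0.04, and that for PPARa-M against SEAP-M was 0.00.

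Members were also split by whether they have a bacterial counterpart. In PPARa-M against SEAP-M, the 41 with a counterpart had a median difference of -0.03 (16 positive) and the 32 found in mitochondria only of -0.02 (14 positive). In PPARa-M against vehicle the medians were -0.04 (15 positive) and 0.02 (18 positive). Both members that passed against SEAP-M, Mrpl34 and Mrps5, are of bacterial descent.

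Single members differed in how closely they followed the rest. Each was compared with the mean of the other 72 over the 20 mice, which share arrays, so that r is a description. The median r was 0.461, and 34 members were above 0.5, 13 above 0.7 and 6 below 0. Most alike were Mrps28 (r = 0.843), Mrps12 (0.819), Mrps30 (0.810), Mrpl46 (0.805) and Mrpl10 (0.777), proteins of both subunits. Mrps28, of the small subunit, stood at -0.03, 0.18, -0.37 and -0.34 in the PPARa-M mice and between -0.10 and 0.18 in the vehicle mice, so that its lowest value and one near its highest fell in the same group. The mean r over all pairs of members was 0.194, and 70.7% of the pairs were positive, beside a mean r of 0.0043 over pairs of all genes.

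Mrpl1 ran most against the rest (r = -0.28). Its product forms the stalk at which the emptied tRNA leaves. Its values were -0.43, 0.43, -0.26 and 0.22 with PPARa siRNA, which span most of its range, and -0.17 (SD 0.11) with vehicle. Mrps23, Mrps17, Mrpl3, Mrpl21 and Mrpl41 also had r below 0, from -0.07 to 0.00. Mrpl41 held the lowest value of any member, -0.74 in PPARa mouse B, and 0.46 in SEAP-M mouse B.

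**Figure D4:**
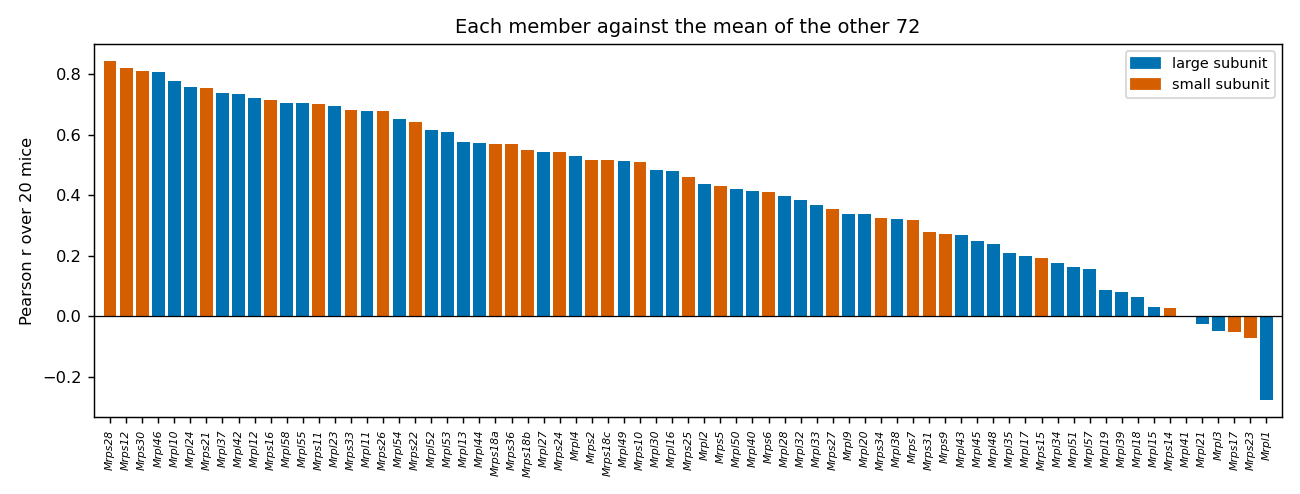
Pearson r over 20 mice of each of the 73 members with the mean of the other 72, ordered from highest (Mrps28, 0.843) to lowest (Mrpl1, -0.28), with large-subunit genes in blue and small-subunit genes in orange. Members of both subunits are found along the whole order, and 34 are above 0.5.

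The head-to-head pair Mrpl46 and Mrps11 correlated with r = 0.748. For 21 members another protein-coding gene started within 1000 bases behind them on the opposite strand, and for 17 of them the partner was on the array. The r with the partner ran from -0.41 (Mrpl2 with Klc4) to 0.748, with a median of 0.065. For Mrps12 with Sars2 it was 0.258, for Mrpl49 with the ribosomal protein gene Fau 0.587, and for Mrps27 with Ptcd2, a mitochondrial RNA-binding protein, 0.455. Members with the ETS match had a median r of 0.528 with the other members, and those without it one of 0.436. For the NRF1 match the medians were 0.361 and 0.478, for the YY1 match 0.570 and 0.433, and for the GC box 0.489 and 0.461.

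The mean of the members moved with that of other translation and respiration genes. With the mean of 74 subunit genes of oxidative phosphorylation, r over the 20 mice was 0.911 (rho 0.892, and 0.944 after the group means were removed). With the mean of 56 genes of cytosolic ribosomal proteins it was 0.689 (rho 0.729). The mean pair r within these sets was 0.241 and 0.204, near that of the members. All of these values share the arrays and their scaling, and they are given with no test.

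The members as a group did not follow the Ppara level. The mean of the 73 genes and Ppara gave r = 0.120 (rho 0.235) over the 20 mice, -0.01 after the group means were removed, and 0.397 without the 2 mice at the ends of the Ppara range, PPARa-M mouse B (Ppara -1.05) and SEAP-M mouse A (Ppara 0.80). For the large and the small subunit alone r was 0.116 and 0.122. PPARa-M mouse B, with the lowest Ppara level, had one of the highest member means (0.08), and mice C and D of the same group, with Ppara at -0.59 and -0.62, had 2 of the lowest (-0.09 and -0.08).

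For single genes, the slope of the log2 level on the log2 Ppara level was fitted over the 20 mice with limma. The slope passed for 4 members, all positive, where 9.4% of all genes passed, and 5.63% of all genes had a positive slope that passed and 3.77% a negative one. Mrpl9 had the steepest, 0.44 (SE 0.09, adjusted p = 0.00718). It was lowest in PPARa-M mouse B (-0.48), the mouse with the least Ppara, and highest in SEAP-M mouse A (0.53), the mouse with the most. Its other PPARa-M values were -0.16, -0.17 and -0.22, and its vehicle values, from -0.13 to 0.23, all lay above the PPARa-M values. The other slopes that passed were of Mrps24 (0.20, SE 0.06, adjusted p = 0.0306), which matches the bacterial protein S3, of Mrps23 (0.23, SE 0.07, adjusted p = 0.0378) and of Mrpl30 (0.14, SE 0.04, adjusted p = 0.0417). The most negative slope among members was that of Mrpl34 (-0.31, SE 0.10, adjusted p = 0.0526), followed by those of Mrps36 (-0.15, SE 0.07, adjusted p = 0.134) and Mrps34 (-0.15, SE 0.06, adjusted p = 0.137).

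**Figure D5:**
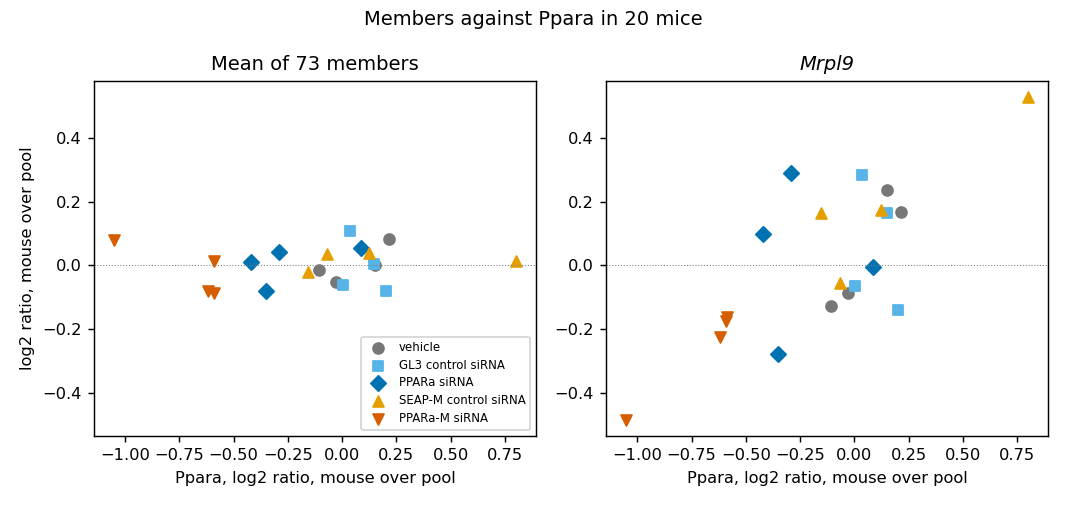
Mean log2 ratio of the 73 members (left) and of Mrpl9 (right) against the log2 ratio of Ppara in the 20 mice, on the same vertical scale and marked by group. The mean of the members stays between -0.09 and 0.11 at every Ppara level, while Mrpl9 runs from -0.48 in the mouse with the lowest Ppara (-1.05) to 0.53 in the mouse with the highest (0.80).

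These slopes rested on few mice and on the scale of the arrays. Without PPARa-M mouse B, 0 members passed, and the slope of Mrpl9 was 0.40 (adjusted p = 0.0614) and that of Mrps23 was 0.10 (adjusted p = 0.410). Without GL3 mouse B, 9 members passed. Without both PPARa-M mouse B and SEAP-M mouse A, the slope of Mrpl9 was 0.31 (adjusted p = 0.254), 0 members passed, and 0.538% of all genes did. With arrays scaled to the same interquartile range it was 0.39 (adjusted p = 0.212). With a mean for each group in the fit, which leaves the differences between mice of a group, 0 members and 0% of all genes passed, and Mrpl9 again had the smallest p (0.45, SE 0.17, adjusted p = 0.257). In that fit 10 members had a positive slope at an unadjusted p under 0.05 (13.7%, beside 7.62% of all genes) and 1 a negative one (6.43% of all genes). After Mrpl9, the smallest p in that fit was that of Mrpl15 (0.25, SE 0.09, adjusted p = 0.262) and Mrps18a (0.36, SE 0.15, adjusted p = 0.284). The negative slope was that of Mrpl1 (-0.43, SE 0.18, adjusted p = 0.307), followed by Mrps16 (-0.39, SE 0.19, adjusted p = 0.361) and Mrps25 (-0.24, SE 0.12, adjusted p = 0.377). Within groups, then, large- and small-subunit symbols lay at either end. Of those named at the positive end, however, the only small-subunit symbol is Mrps18a, whose product sits in the large subunit.

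Of the members, 3 have more than one probe. The probes of Mrpl30 agreed over the 20 mice (r = 0.859). Those of Mrpl15 did not (r = 0.020), and 1 of them had a single low value, -0.57, in GL3 mouse C. Those of Mrps18b did not either (r = -0.05), and gave opposite signs for PPARa-M against SEAP-M, -0.29 and 0.10. The values of Mrpl15 and Mrps18b are therefore means of probes that disagreed.

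Other genes of mitochondrial translation were looked up by lists. A list of mitochondrial ribosomal proteins that the symbol rule misses held 3 genes on the array, Dap3, Chchd1 and Ptcd3. In PPARa-M against SEAP-M 1 of the 3 passed, Dap3, a GTP-binding protein of the small subunit. The other 2 had positive differences that did not pass. Dap3 was at -0.29, -0.29, -0.40 and -0.31 with PPARa-M siRNA and at 0.01, 0.03, 0.07 and -0.04 with SEAP-M control siRNA. All 4 PPARa-M mice were below the other 16, a split that was not counted over all genes. The lowest of the 16 stood at -0.25. The difference was -0.34 (SE 0.06, limma, adjusted p = 0.00763), and with arrays scaled to the same range it was -0.24 (adjusted p = 0.114). Of 10 translation factors 0 passed (2.54% of all genes), with a median of -0.14. Tufm, the elongation factor that brings aminoacyl-tRNA to the ribosome, was at -0.36, -0.34, -0.24 and -0.19 with PPARa-M siRNA and passed against vehicle (-0.28, SE 0.06, adjusted p = 0.0130) but not against SEAP-M (-0.19, SE 0.06, adjusted p = 0.0890). With arrays scaled to the same range, the difference of Tufm from vehicle was -0.19 (limma, adjusted p = 0.167).

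Of 14 mitochondrial aminoacyl-tRNA synthetases 0 passed, and of 22 factors of ribosome assembly and mitochondrial RNA 1 passed, Rpusd4, a pseudouridine synthase that acts on the large ribosomal RNA (-0.35, SE 0.08, limma, adjusted p = 0.0316). Its call was lost without PPARa-M mouse B (-0.29, limma, adjusted p = 0.0758) and with arrays scaled to the same range (-0.26, adjusted p = 0.190). Of 8 regulators of nuclear genes for mitochondria 0 passed. The slope on Ppara passed for 7 of the 22 factors, all positive, beside 5.63% of all genes: Tfam, Tfb2m, Noa1, Lrpprc, Mrm2, Mrm3 and Rpusd4, with slopes from 0.20 to 0.33. Tfam packs mitochondrial DNA and Tfb2m opens its promoters for transcription. Without the 2 mice at the ends of the Ppara range, and with arrays scaled to the same range, 0 of the 22 passed. The slope was also positive and passed for 1 of the 10 translation factors, Tufm (0.23, SE 0.05, limma, adjusted p = 0.0131). It passed for 1 of the 3 genes that the symbol rule misses, 0 of the 14 synthetases and 0 of the 8 regulators. In both of these alternatives, 0 genes of these lists passed.

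The array holds ratios to a liver pool and no signal, so the presence of cell type markers could not be checked by their level. In PPARa-M against SEAP-M, 0 of 6 hepatocyte, 0 of 8 leukocyte and Kupffer cell, 0 of 4 cholangiocyte, 0 of 5 stellate and 0 of 3 erythroid markers passed, and 1 of 5 endothelial markers did, Flt1 (0.46, SE 0.11, limma, adjusted p = 0.0370). The differences of the 5 endothelial markers were positive for 2 and negative for 3, with a median of -0.001. Flt1 was at 0.26 (adjusted p = 0.403) with arrays scaled to the same range and at 0.42 (adjusted p = 0.0834) without PPARa-M mouse B. Against vehicle, 1 of 6 hepatocyte markers was lower (Ass1, -0.41, SE 0.10, limma, adjusted p = 0.0203), and 4 of 6 were positive. Ass1 stood at 0.36 to 0.53 with vehicle, at -0.30 to 0.21 with PPARa-M and at -0.44 to -0.10 with the other siRNAs. The vehicle mice thus lay above a pool of vehicle-treated mice for Ass1, and the reason was not tested. Each other siRNA group also had 1 of 6 hepatocyte markers called lower than vehicle. Of all 15252 genes, 6 were called lower than vehicle with PPARa siRNA, 1 with SEAP-M and 2 with GL3. Of 3 erythroid markers 1 was lower (Alas2, -0.63, SE 0.16, adjusted p = 0.0268). Without PPARa-M mouse B, 0 hepatocyte and 0 erythroid markers passed against vehicle. With arrays scaled to the same range, 0 erythroid markers passed, while 1 hepatocyte marker was still lower than vehicle. Of the 5 endothelial markers, Flt1 was higher than with vehicle (0.57, SE 0.11, adjusted p = 0.00909), and after that scaling it was at 0.37 (adjusted p = 0.177). The mean of the cholangiocyte markers ran from 0.21 to 0.47 in the PPARa-M mice, from -0.19 to 0.18 in the SEAP-M mice and from -0.17 to 0.14 in the vehicle mice. In the same order, that of the erythroid markers ran from -0.56 to -0.50, from -0.33 to 0.23 and from -0.31 to 0.12, and that of the endothelial markers from 0.09 to 0.25, from -0.03 to 0.13 and from -0.19 to 0.23. The cholangiocyte mean ran from 0.02 to 0.45 with PPARa siRNA and from -0.28 to -0.06 with GL3. For each Ppara siRNA against its control, 4 of 4 cholangiocyte markers were positive and 0 passed. Their slope on Ppara passed for 3 of 4, all negative (3.77% of all genes), and for 0 with arrays scaled to the same range. It passed for 2, again negative, without PPARa-M mouse B, and for 0 without the 2 mice at the ends of the Ppara range. The part of these markers in the differences of Mrpl34, Mrps5 and Mrpl13 was not tested.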

How the data were processed

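Liver RNA of 20 mice was hybridized against a vehicle pool, and the authors deposited 1 log10 ratio per probe and array, without signals. The scanner software, background correction and normalization behind the log10 ratios are not given in the sources used here, so the number of arrays, and not a depth, sets the precision. Array medians lay between -0.0093 and 0.006, and no pair of arrays correlated below -0.255. Values were converted to log2. Of 23493 probes, 18790 have a single symbol, 65 several and 4638 none, and probes of a gene were averaged. One linear model with a mean for each of the 5 groups was fitted to all 15252 genes and 20 arrays with limma 3.58.1 in R 4.3.3, with Benjamini-Hochberg adjustment over all genes and a threshold of 0.05, and slopes on the Ppara level in separate limma fits. The p-values measure the spread between mice. On simulated data with shifts placed as in PPARa-M against SEAP-M, over 15252 genes, 35 of 100 shifts of 1.25-fold and 76 of 100 of 1.5-fold passed. Alternatives were median centring, quantile normalization, scaling to one interquartile range, array weights, robust moderation, the median over probes, a fit of the compared groups alone, the mouse letter as a block, and leaving out each mouse. Named genes are the members that passed, or, where fewer than 3 did, the 4 with the smallest p, the 3 with the most positive and most negative slopes, those with the largest and smallest vehicle SD or disagreeing probes, and the genes of other lists with the smallest p. Members named for lack of overlap, for likeness to the other members or for their lowest value were chosen after their values were seen. The members and lists were chosen with earlier results of these data known. Promoter motifs were searched with Python 3.11.15.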

Additional observations from a re-analysis of the deposited data

Results flagged for a closer look

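Among 120 sets of 4 mice (the 20 members named by the rule, Ppara, and the means of all, large and small members, each in 5 groups), 7 held a mouse set apart from the other 3 by a gap to the nearest of them that took up more of the range of its group than Dixon's critical value at 95% allows. Chance sets about 1 in 20 such groups apart, so that 7 of 120 is close to what chance gives. Mrps18a, whose product sits in the large subunit, was set apart in 2 groups, at -0.2986 in PPARa mouse D (others 0.14 to 0.17) and at 0.3628 in SEAP-M mouse A (others 0.07 to 0.11). PPARa mouse D was also apart for Mrps16, a small-subunit protein of bacterial descent, at -0.1408 (others 0.18 to 0.19). Mrps18b stood at 0.3442 in PPARa-M mouse B (others -0.04 to -0.01), and 1 of its probes that disagreed carried that value (0.62). Mrps5 stood at 0.06278 in GL3 mouse A (others -0.08 to -0.06), and Mrpl57 at -0.1119 in GL3 mouse B (others 0.06 to 0.08). Ppara stood at -1.051 in PPARa-M mouse B (others -0.62 to -0.59).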

How the results depend on the processing

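Few members passed in any comparison, and the counts moved with the processing. With quantile normalization, and with each array scaled to one interquartile range, 0 members passed in PPARa-M against SEAP-M, against vehicle and against PPARa siRNA, in the F test and for the slope on Ppara over 20 mice. When only the compared groups were fitted, 0 passed in PPARa-M against SEAP-M, vehicle and PPARa siRNA. With array weights, 4 passed against SEAP-M, 5 against PPARa siRNA, 1 between the control siRNAs, 1 in the difference of the siRNA effects, 5 in the F test and 0 for the slope. Median centring left 1 member in PPARa-M against PPARa siRNA. Without the 2 mice at the ends of the Ppara range, an alternative chosen after seeing the data, 0 slopes passed, and the slope of Mrps16 within groups turned to 0.2114 (limma, adjusted p = 0.973). With Mrps18a and Mrps30 counted as large and Mrps36 left out, large minus small in PPARa-M against SEAP-M was 0.001619. Leaving out 1 mouse at a time gave 0 to 3 members against SEAP-M, 0 to 3 against vehicle, 1 to 2 against PPARa siRNA, 0 to 3 in the F test (0 without PPARa-M mouse B, C or D) and 0 to 9 slopes, and 0 in every other comparison. Large minus small kept its sign in these fits (PPARa against GL3 -0.04336 to -0.0265, PPARa-M against SEAP-M 0.009466 to 0.01898, PPARa-M against vehicle 0.008187 to 0.02247). The cause of these shifts was not tested. Mouse letters share only a letter: 12 of 32 pairs of deviations correlated above 0.1 (range -0.21 to 0.30) and 11 of 32 correlated best with their own letter. With the letter as a replicate block, 1 member passed against PPARa siRNA and 2 for the slope (Mrpl9, and Mrpl34 at -0.42, limma, adjusted p = 0.0201). Without signals, dim probes could not be told from bright ones.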
